A study of Mus musculus with 11 samples.

Results

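Fibrillins, latent TGF-beta binding proteins (LTBPs) and the TGF-beta ligands and receptors were examined in maxillary molar tooth germs of C57BL/6 mouse embryos at E14.5, the cap stage of tooth development. The 10 genes are Fbn1, Fbn2, Ltbp1, Ltbp3, Ltbp4, Tgfb1, Tgfb2, Tgfb3, Tgfbr1 and Tgfbr2, out of 16755 genes listed. The set was chosen by the level of Fbn1 in the compound mutant, which had been lower in an earlier analysis of these data, and its microfibril partners and the ligands and receptors linked to them were added. All 10 symbols were found in all 11 libraries, and no filter on low values was applied.

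The study compared 4 wild-type libraries, 4 libraries of Cilk1-/- embryos and 3 libraries of Cilk1-/-;PCS1-MRCS1△/△ embryos, called the compound mutant here. Cilk1 is a serine/threonine kinase of the primary cilium, and exon 6 of the gene was removed in the germ line with EIIa-Cre, so that every tissue of both mutants lacks this exon. The compound mutant also carries a deletion of 70 kb that spans the Shh enhancers PCS1 to MRCS1 on both alleles. Wild-type and Cilk1-/- germs came from littermates, embryos of either sex were used, and each library pooled n = 6, without a statement whether 6 counts germs or embryos. The comparisons ask how these genes differ with the loss of a ciliary kinase and with the added loss of Shh enhancers.

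Values are on a log2 scale, probably log2(FPKM + 1), in which FPKM is the number of fragments scaled to gene length and to all fragments mapped. Such a value is per length, so levels of different genes can be set side by side. The depth of each library is unknown, so that errors given here come from the variation among libraries. The targeted gene, listed under its older symbol Ick, was at 3.45 to 3.60 in wild type, 2.72 to 2.86 in Cilk1-/- and 2.60 to 2.67 in the compound mutant. Of the lists of cell-type markers, dental epithelium (7 of 7 genes listed, none at 0) summed to 874 to 1113 on the linear scale in wild type and dental mesenchyme (7 of 7, none at 0) to 724 to 814. Compound mutant replicate 1 stood apart. Its cartilage markers (7 of 7 listed) summed to 629, against 23.9 to 30.2 in wild type, 26.6 to 38.2 in Cilk1-/- and 44.3 and 49.8 in compound mutant replicates 2 and 3. Of these markers, Matn1 was below 0 in wild-type replicate 1. The neuron markers (7 of 7 listed, none at 0) summed to 194 in compound mutant replicate 1, and those of replicates 2 and 3 to 32.5 and 60.9. Dental mesenchyme markers summed to 461 and 516 in compound mutant replicates 1 and 3 and to 766 in replicate 2, and dental epithelium markers to 525 and 743 in replicates 1 and 2 and to 1168 in replicate 3. Erythroid markers (7 of 7 listed) summed to 759 in replicate 3, against at least 2126 in every other library. Since RNA came from whole germs, fewer cells of a type and less RNA per cell cannot be told apart.

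Fibrillins are large secreted glycoproteins that assemble into microfibrils, the fibers on which elastin is laid down and which also stand alone in many embryonic tissues. TGF-beta is secreted in an inactive form, bound to its own propeptide and to an LTBP, and the LTBP anchors this complex to fibrillin microfibrils and other matrix fibers. Integrins and proteases release the ligand, which then signals through a complex of the type II receptor Tgfbr2 and the type I receptor Tgfbr1. Mutation of human FBN1 causes Marfan syndrome, and TGF-beta signaling has long been studied in the tooth germ, where it acts in both epithelium and mesenchyme.

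Promoter sequence is shown for Tgfb1 and Tgfb2, the ligand genes whose libraries of Cilk1-/- and wild type did not overlap. The letters come from RefSeq on GRCm38.p6, written 5′ to 3′ on the strand of the gene, and 8 of the 10 genes had a window there. For Tgfb1 and Tgfb2, the 250 bases before the start are shown, chr7:25686752-25687001 on the plus strand and chr1:186705990-186706239 on the minus strand. Capitals mark GC boxes (GGGCGG or its complement) in Tgfb1, and a CCAAT box, the E-box CACGTG and the TATA box TATAAA in Tgfb2.
Tgfb1: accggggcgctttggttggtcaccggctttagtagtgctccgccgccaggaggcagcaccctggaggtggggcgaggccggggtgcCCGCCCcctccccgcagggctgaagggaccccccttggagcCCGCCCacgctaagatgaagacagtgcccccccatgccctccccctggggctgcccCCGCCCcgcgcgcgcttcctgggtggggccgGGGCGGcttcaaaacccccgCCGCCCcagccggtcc
Tgfb2: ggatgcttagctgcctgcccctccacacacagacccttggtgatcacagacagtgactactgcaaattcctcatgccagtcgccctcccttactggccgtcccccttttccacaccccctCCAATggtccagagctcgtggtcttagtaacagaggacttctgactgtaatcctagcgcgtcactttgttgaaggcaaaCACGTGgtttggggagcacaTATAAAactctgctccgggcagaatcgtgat
The TATA box of Tgfb2 begins 31 bp before the start and its E-box 51 bp before it, whereas the Tgfb1 window holds 5 GC boxes and no TATA box of this spelling. Motifs were searched on both strands in 32817 windows of the same length, of which 12.4% held TATAAA, 32.7% GGGCGG, 33.8% CCAAT and 6.02% CACGTG. The Gli motif GACCACCCA, in 0.225% of all windows, and the Smad palindrome GTCTAGAC, in 0.168%, were in no window of these 8 genes, which says only that these letters are not there.

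In wild type, both fibrillins, Ltbp3 and Ltbp4 had the highest levels and the receptors and Tgfb2 the lowest. The order of mean levels on the log2 scale was Fbn2 (5.77), Ltbp4 (5.59), Fbn1 (5.47), Ltbp3 (5.28), Tgfb3 (5.08), Tgfb1 (4.86), Ltbp1 (4.66), Tgfbr1 (4.53), Tgfbr2 (4.39) and Tgfb2 (4.05). Libraries of neighbors in this order overlapped except between Ltbp3 and Tgfb3, between Tgfb3 and Tgfb1, and between Tgfbr2 and Tgfb2. Fbn1 stood at the 91.1th percentile of all genes listed in wild type and Tgfb2 at the 70.4th. In Cilk1-/-, Fbn1 stood just below Tgfb3 (5.06 and 5.07), and Tgfb1 took the lowest place at 4.36, next to Tgfb2 at 4.43. The libraries of Tgfb1 and Tgfb2 overlapped there.

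**Figure D1:**
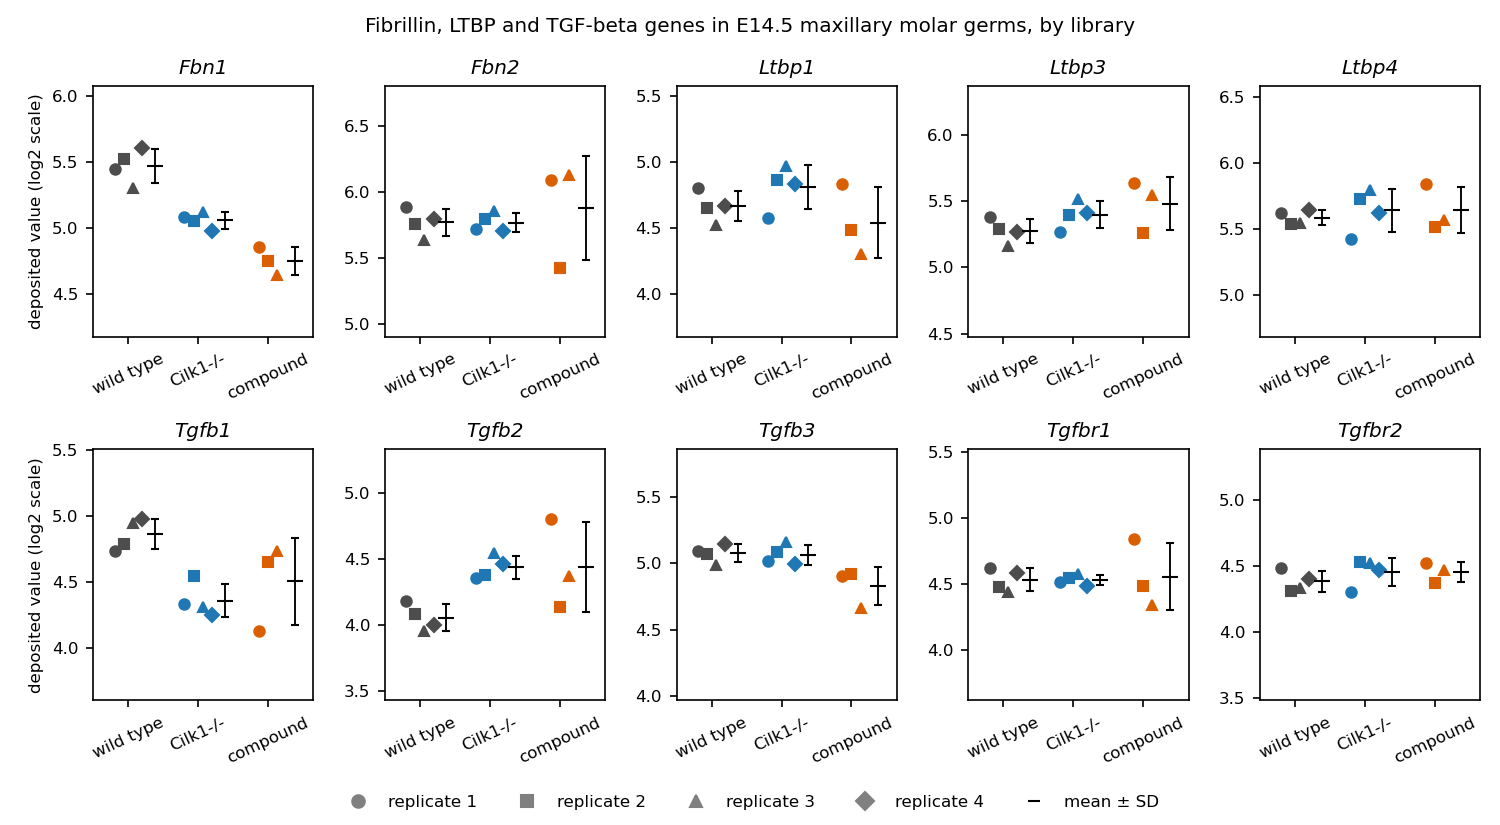
Values of the 10 genes in each library, on the log2 scale of the deposited table (vertical axes, each spanning the same range), in 4 wild-type, 4 Cilk1-/- and 3 compound mutant libraries. Point shapes give the replicate number, and bars the mean ± SD. Fbn1 steps down from wild type (5.30 to 5.60) to Cilk1-/- (4.97 to 5.12) and the compound mutant (4.65 to 4.85), while all Cilk1-/- libraries lie below wild type for Tgfb1 and above it for Tgfb2.

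The fibrillin genes differed from each other in how they varied. Fbn1, on chromosome 2 (125300594 to 125507993, minus strand, GRCm38), encodes the main fibrillin of adult microfibrils. Its values in wild-type replicates 1 to 4 were 5.45, 5.52, 5.30 and 5.60. In Cilk1-/- they were 5.08, 5.05, 5.12 and 4.97. All 4 Cilk1-/- libraries lay below all 4 wild-type libraries. The mean fell from 5.47 ± 0.13 (SD, n = 4) to 5.06 ± 0.062 (n = 4), a difference of −0.41 (standard error 0.068, 95% confidence interval −0.56 to −0.26, adjusted p = 0.0174, limma). That is 0.752 times wild type on the scale with 1 added. The difference did not reach a fold change of 1.5. These libraries are also those with which the compound mutant was compared, so the test is not independent of the choice of genes. Same-numbered wild-type and Cilk1-/- libraries deviated in opposite directions over all genes, and a fit that takes them as independent then gives standard errors and p-values for this comparison that are too small. With the replicate number as a block the adjusted p was 0.134. It was 0.268 when the block of replicate 4 also held the compound mutant. The adjusted p also passed 0.05 when wild-type replicate 2 or 4 or Cilk1-/- replicate 2, 3 or 4 was left out (0.0611 to 0.0694), with differences between −0.43 and −0.37. The first series of libraries in the labels, with 3 of each genotype, gave −0.34, and the second, with 1 of each, −0.63. Dental mesenchyme markers summed to 724 to 814 in wild type and to 641 to 751 in Cilk1-/-, so the ranges of the sum overlapped. Of the 7 markers, Barx1, Pax9 and Twist1 had lower Cilk1-/- libraries without overlap. Within wild type and within Cilk1-/-, Fbn1 placed the 4 libraries in the same order as this sum did, but within the compound mutant it did not. By replicate number, the order in Cilk1-/- was the reverse of that in wild type. Since same-numbered libraries deviated in opposite directions over all genes, the order in Cilk1-/- is not a separate observation. The part of mesenchyme content in the values of Fbn1 was not tested, nor that of the neuron and Schwann cell markers, whose sums were higher in Cilk1-/- (28.4 to 31.1 against 17.4 to 22.9, and 22.6 to 25.7 against 18.8 to 21.4).

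Compound mutant libraries had Fbn1 at 4.85, 4.75 and 4.65 in replicates 1 to 3. Each of these values was below every Cilk1-/- library. The mean of 4.75 ± 0.10 (SD, n = 3) was 0.72 below wild type and 0.31 below Cilk1-/-, given without a test because this value was used to choose the genes. On the linear scale the group means correspond to 43.3 in wild type, 32.3 in Cilk1-/- and 25.9 in the compound mutant. The dental mesenchyme markers of these replicates summed to 461, 766 and 516. The part of mesenchyme content in these values of Fbn1 was not tested. The 3 compound mutant libraries share a series of library numbers with 1 library each of wild type and Cilk1-/-. Within that series Fbn1 was 0.85 below wild type and 0.22 below Cilk1-/-.

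Fbn2, the fibrillin most linked to embryonic tissue, lies on chromosome 18 (58008623 to 58210487, minus strand). It was at 5.89, 5.76, 5.64 and 5.80 in wild type and at 5.72, 5.79, 5.86 and 5.71 in Cilk1-/-. The Cilk1-/- libraries all lay inside the wild-type range. The difference was −0.0018 (standard error 0.13, 95% confidence interval −0.30 to 0.29, adjusted p = 0.998, limma). The compound mutant had Fbn2 at 6.09, 5.43 and 6.13. Replicates 1 and 3 were above all libraries of both other genotypes and replicate 2 was below them all. The difference from wild type was 0.11 (standard error 0.14, 95% confidence interval −0.20 to 0.43, adjusted p = 0.647, limma). Without compound mutant replicate 2 it was 0.34 (adjusted p = 0.0105), and against Cilk1-/- it was likewise 0.34 (adjusted p = 0.0191). Without replicate 3 these differences were −0.011 and −0.0088. Of 20 alternatives, 1 took the adjusted p under 0.05 in each comparison.

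The level of Fbn1 relative to Fbn2 within a library compares both fibrillins in the same RNA. Fbn1 minus Fbn2 ran from −0.44 to −0.20 in wild type and from −0.74 to −0.64 in Cilk1-/-. In the compound mutant it was −1.24, −0.68 and −1.49. The first 2 ranges did not overlap, and compound mutant replicate 2 fell within the range of Cilk1-/-.

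**Figure D2:**
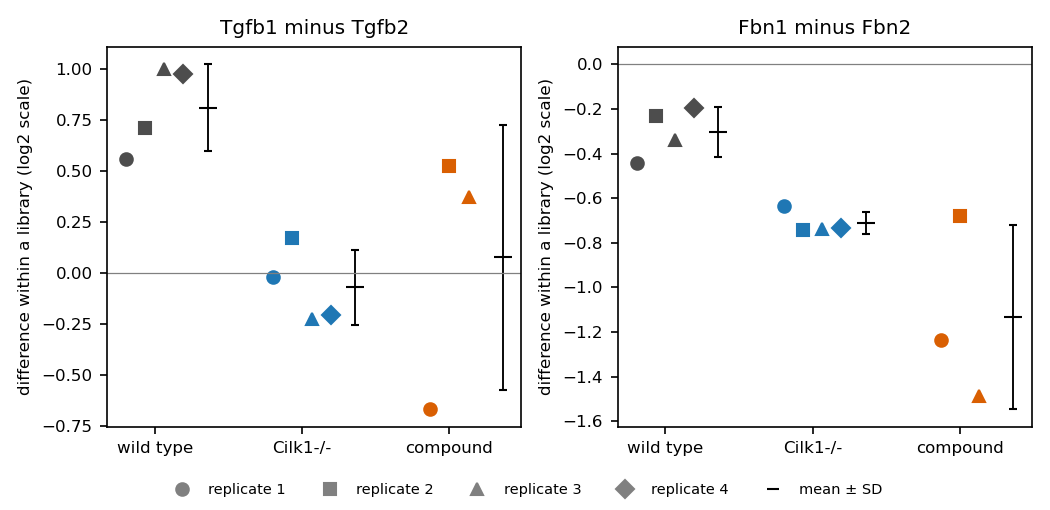
Difference between Tgfb1 and Tgfb2 (left) and between Fbn1 and Fbn2 (right) within each library, on the log2 scale (vertical axes), by genotype. Shapes give the replicate number, bars the mean ± SD, and the line at 0 equal levels. Tgfb1 exceeded Tgfb2 by 0.56 to 0.997 in wild type, against −0.23 to 0.17 in Cilk1-/-, and compound mutant replicate 1 lay lowest at −0.67.

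LTBPs tie latent TGF-beta to the matrix, and none of the 3 passed the test in any comparison. Ltbp1, on chromosome 17 (75005568 to 75392512, plus strand), binds all TGF-beta isoforms. It was at 4.80, 4.65, 4.52 and 4.67 in wild type, 4.57, 4.86, 4.97 and 4.83 in Cilk1-/- and 4.83, 4.48 and 4.30 in the compound mutant. Cilk1-/- replicates 2 to 4 were above all wild-type libraries and replicate 1 was not. The difference of Cilk1-/- from wild type was 0.15 (95% confidence interval −0.11 to 0.41), and that of the compound mutant from Cilk1-/- was −0.27 (−0.55 to 0.0072, adjusted p = 0.226, limma). The latter was −0.42 without compound mutant replicate 1 and −0.15 without replicate 3.

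Ltbp3, on chromosome 19 (5740904 to 5758532, plus strand), is needed for enamel and tooth number in humans. It was at 5.38, 5.29, 5.16 and 5.27 in wild type, 5.27, 5.40, 5.52 and 5.41 in Cilk1-/- and 5.64, 5.26 and 5.55 in the compound mutant. Compound mutant replicates 1 and 3 exceeded every library of the other genotypes, whereas replicate 2 was within the wild-type range. The difference from wild type was 0.21 (standard error 0.091, adjusted p = 0.181, limma), 0.32 without replicate 2 (adjusted p = 0.0194) and 0.13 without replicate 1. Ltbp4, on chromosome 7 (27305136 to 27337692, minus strand), also serves elastic fiber assembly. Its libraries overlapped in every comparison, at 5.53 to 5.64 in wild type, 5.42 to 5.79 in Cilk1-/- and 5.52 to 5.84 in the compound mutant. Its differences from wild type were 0.053 (95% confidence interval −0.14 to 0.25) in Cilk1-/- and 0.055 (−0.16 to 0.27) in the compound mutant.

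None of the 3 ligands passed the test in any comparison of the fit over all libraries. Tgfb1, on chromosome 7 (25687002 to 25705077, plus strand), encodes the isoform that is most widespread in the body. It was at 4.74, 4.79, 4.95 and 4.98 in wild type and at 4.33, 4.55, 4.31 and 4.26 in Cilk1-/-. All 4 Cilk1-/- libraries were below all wild-type libraries. The difference was −0.50 (standard error 0.12, 95% confidence interval −0.77 to −0.23), or 0.706 times wild type, and the adjusted p was 0.0596 (limma). With only these 2 genotypes in the fit the adjusted p was 0.00554, without compound mutant replicate 1, 2 or 3 it was 0.00946, 0.0417 and 0.033, and with the replicate block it was 0.161. Under the alternatives the difference lay between −0.56 and −0.46, short of a fold change of 1.5.

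Tgfb1 in the compound mutant was at 4.13, 4.656 and 4.738. Replicate 1 was below all other libraries, and replicate 3 was just below the lowest wild-type library at 4.740. The difference from wild type was −0.36 (standard error 0.13, 95% confidence interval −0.65 to −0.062, adjusted p = 0.126, limma). It was −0.17 when replicate 1 was left out. Against Cilk1-/- it was 0.15 (−0.15 to 0.44, adjusted p = 0.541).

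Tgfb2, on chromosome 1 (186622792 to 186705989, minus strand), encodes the isoform whose loss in the mouse causes heart and skull defects. It was at 4.18, 4.08, 3.95 and 4.001 in wild type and at 4.36, 4.38, 4.54 and 4.46 in Cilk1-/-. Here all 4 Cilk1-/- libraries were above all wild-type libraries. The difference was 0.38 (standard error 0.12, 95% confidence interval 0.12 to 0.64), or 1.30 times wild type, with an adjusted p of 0.111 (limma). It was 0.00638 with only these 2 genotypes in the fit, 0.0186 and 0.04 without compound mutant replicate 1 or 2, and 0.249 with the replicate block.

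Tgfb2 in the compound mutant was at 4.80, 4.13 and 4.37. The highest of these was replicate 1 and the lowest, replicate 2, was inside the wild-type range. The difference from wild type was 0.38 (standard error 0.13, adjusted p = 0.0999, limma), 0.53 without replicate 2 (adjusted p = 0.0126) and 0.20 without replicate 1. That from Cilk1-/- was 0.00048 (95% confidence interval −0.28 to 0.29). Replicate 1, with the lowest Tgfb1 and the highest Tgfb2 of the compound mutant, is the library with the high cartilage and neuron markers, and the part of those cells in these values was not tested.

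Tgfb1 exceeded Tgfb2 by 0.81 ± 0.21 (SD, n = 4) on the log2 scale in wild-type libraries, and by −0.071 ± 0.18 (n = 4) in Cilk1-/-. The ligands thus stood at nearly the same level in Cilk1-/-. The neuron and Schwann cell markers given with Fbn1 also differed between these 2 genotypes. In compound mutant replicates 1 to 3, neuron markers summed to 194, 32.5 and 60.9, and Tgfb1 minus Tgfb2 was −0.67, 0.52 and 0.37. In Cilk1-/-, neuron markers summed to 28.4 to 31.1, and Tgfb1 minus Tgfb2 was −0.23 to 0.17. Mural cell markers (7 of 7 listed) summed to 77.7 to 78.9 in wild type and to 80.9 to 83.6 in Cilk1-/-. The part of these cells in the values of Tgfb1 and Tgfb2 was not tested. Antisense genes overlap the 5′ ends of Tgfb2 (Gm29491) and Fbn1 (Gm9913), and since the counting is not stated to use strand, reads of each gene and its antisense partner cannot be told apart.

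Tgfb3, on chromosome 12 (86056745 to 86079041, minus strand), encodes the isoform needed for fusion of the palate. It was at 5.09, 5.08, 4.99 and 5.15 in wild type and at 5.02, 5.09, 5.16 and 4.996 in Cilk1-/-, a difference of −0.010 (95% confidence interval −0.15 to 0.13). Compound mutant values were 4.90, 4.92 and 4.66. All 3 libraries were below every library of the other genotypes. The difference was −0.25 from wild type (standard error 0.069, 95% confidence interval −0.40 to −0.094, adjusted p = 0.0581, limma), or 0.842 times wild type. From Cilk1-/- it was −0.24 (standard error 0.069, adjusted p = 0.0833), or 0.848 times. The adjusted p against wild type was 0.0459 with median centring, 0.0263 without compound mutant replicate 2 and 0.2 with the replicate block. Against Cilk1-/- it was 0.0476 with quantile normalization, 0.0481 without replicate 2 and 0.27 with the block.

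Neither receptor passed the test in any comparison. Tgfbr1, on chromosome 4 (47353222 to 47414931, plus strand), is the kinase that phosphorylates Smad2 and Smad3. It was at 4.44 to 4.63 in wild type, 4.49 to 4.58 in Cilk1-/- and 4.84, 4.48 and 4.35 in the compound mutant. The Cilk1-/- libraries were all inside the wild-type range, with a difference of −0.0019 (95% confidence interval −0.20 to 0.20). The compound mutant spread to either side, with a difference from wild type of 0.023 (−0.19 to 0.24), and of −0.12 without replicate 1. Tgfbr2, on chromosome 9 (116084293 to 116175360, minus strand), binds the ligand. It was at 4.31 to 4.49 in wild type, 4.31 to 4.54 in Cilk1-/- and 4.37 to 4.52 in the compound mutant. All 3 groups overlapped. Its differences from wild type were 0.073 (−0.061 to 0.21) and 0.070 (−0.075 to 0.21).

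**Figure D3:**
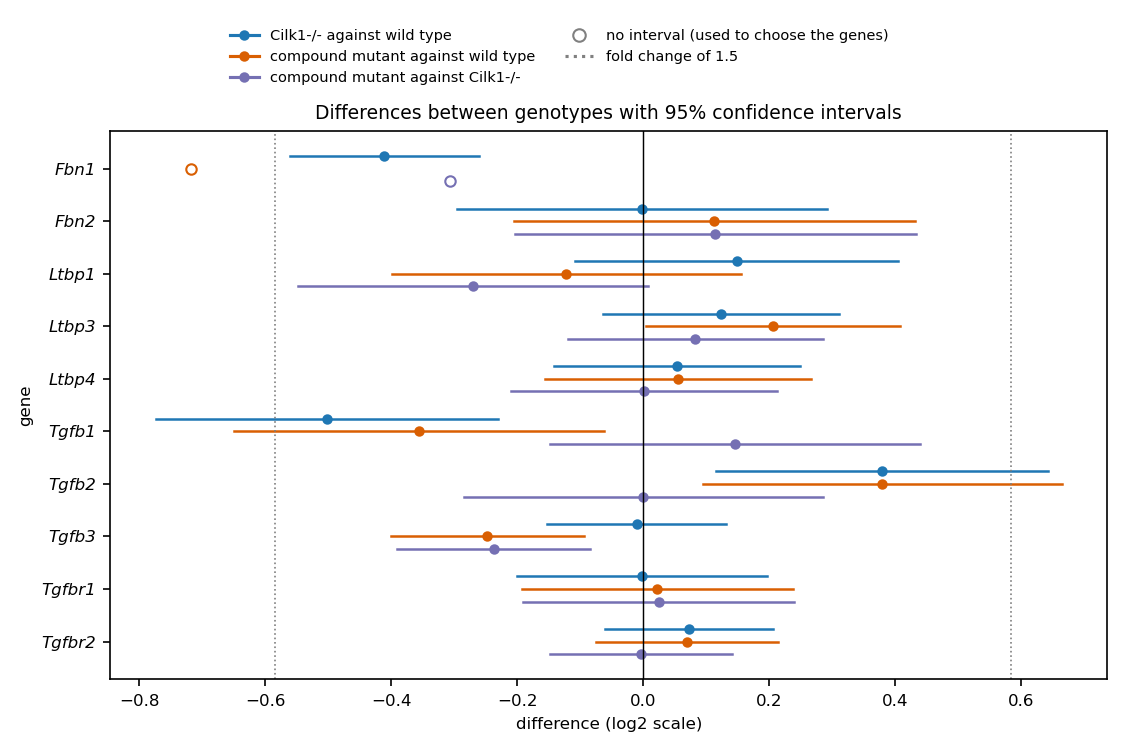
Differences between genotypes for the 10 genes (rows) on the log2 scale (horizontal axis), with 95% confidence intervals from limma. Colors give the comparison, open points the values of Fbn1 used to choose the genes, and dotted lines a fold change of 1.5. Intervals of Fbn1, Tgfb1 and Tgfb2 in Cilk1-/- exclude 0, and those of Fbn2 and both receptors lie around it.

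Counted over the list, few of these genes passed the test. Calls needed an adjusted p below 0.05 together with a change of 1.5 times or more. In Cilk1-/- against wild type, 0 of 10 were called, where 0.370% of all genes were. At an adjusted p alone, 1 of 10 passed, against 2.44% of all genes. This was Fbn1, the gene by which the set was chosen. The libraries did not overlap for 2 lower genes and 1 higher gene of 10, against 10.7% and 10.2% of all genes, and 3 of 10 had an unadjusted p under 0.05, against 20.7%. Fbn1 was among the lower genes without overlap and among those with an unadjusted p under 0.05. For the compound mutant, Fbn1 was left out of the count of calls. Here, 0 of 9 genes were called against wild type (1.25% of all genes) and 0 against Cilk1-/- (0.543%), and 0 passed at an adjusted p alone (6.58% and 3.33%). An unadjusted p under 0.05 was reached by 4 of 9 against wild type (26.7% of all genes) and by 1 of 9 against Cilk1-/- (23.2%). With Fbn1 included, whose place the choice of genes fixed, 3 of 10 had lower libraries without overlap against wild type (9.05% of all genes) and 2 of 10 against Cilk1-/- (9.30%). No gene was higher without overlap in the compound mutant (8.92% and 7.74%). Against wild type, the median difference over the 10 genes was 0.026 for Cilk1-/- and 0.039 for the compound mutant, where all genes gave 0.0032 and −0.0016. The 2 comparisons with wild type share its 4 libraries. Nothing in the labels says that libraries of a genotype come from separate litters, so the p-values measure only the spread between these samples.

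The other genes of the pathway were taken from 4 lists with 83 genes, all listed in the table. In Cilk1-/- against wild type, 1 of the 83 was called lower and 1 higher, or 2.41%, where 0.370% of all genes were called. For the compound mutant 0 were called against wild type (1.25% of all genes) and 1, which was lower, against Cilk1-/- (1.205%, and 0.543% of all genes). At an adjusted p alone, 3.61% of the 83 passed in Cilk1-/-, where 2.44% of all genes did, and 8.43% in the compound mutant against wild type, where 6.58% of all genes did. Against Cilk1-/-, 7.23% of the 83 passed in the compound mutant, where 3.33% of all genes did. With the replicate block, 0 of the 83 passed in any comparison.

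**Figure D4:**
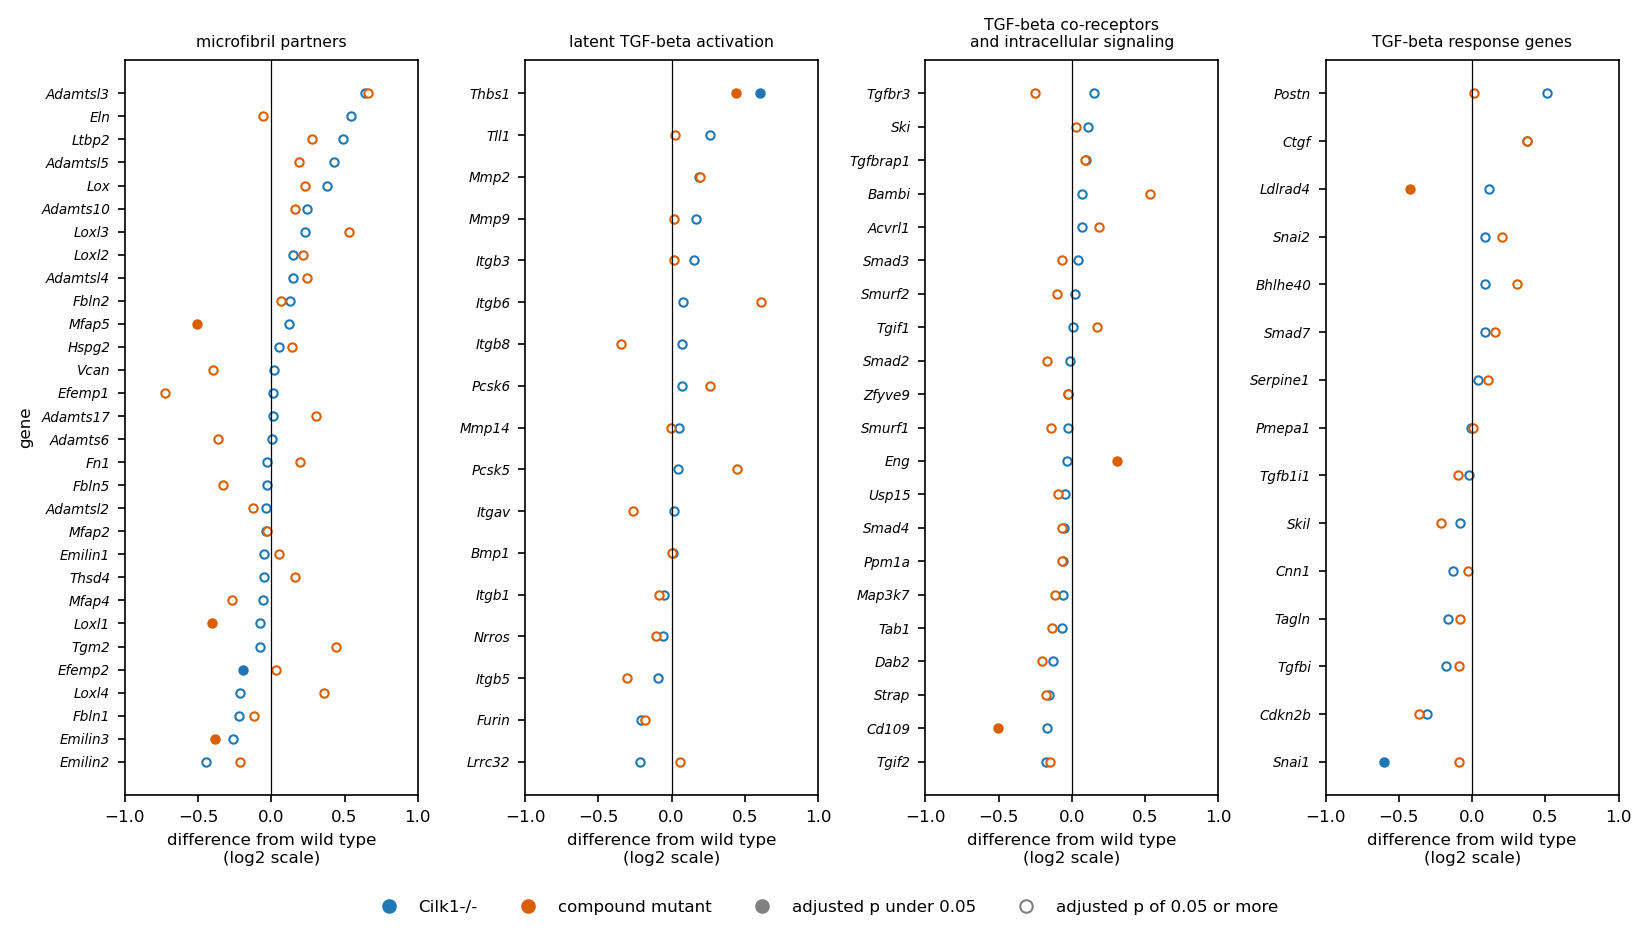
Differences from wild type of the 83 genes in the 4 lists (rows) on the log2 scale (horizontal axes), for Cilk1-/- and the compound mutant. Filled points have an adjusted p under 0.05 in limma. Most points are open, and Thbs1 is the gene filled in both mutants.

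Of the microfibril partners (30 genes), 0 were called against wild type in either mutant. Their median difference from wild type was 0.0091 for Cilk1-/- and 0.058 for the compound mutant, and the latter was −0.039 without replicate 1. In Cilk1-/-, Efemp2 (fibulin-4, needed for elastic fibers) passed at an adjusted p alone, lower by 0.19 (adjusted p = 0.0299, limma). That p was 0.05 or above when any 1 library of these 2 genotypes was left out, and at most 0.115. The compound mutant had more Efemp2 than Cilk1-/-, by 0.23 (adjusted p = 0.0206, and up to 0.0697 without 1 library). Against wild type, Mfap5, Emilin3 and Loxl1 passed at an adjusted p alone in the compound mutant. All 3 were lower. Mfap5 encodes a small microfibril glycoprotein and had low values, at 0.98, 0.97, 0.75 and 0.76 in wild type, 0.84, 0.86, 1.19 and 1.08 in Cilk1-/- and 0.39, 0.13 and 0.56 in the compound mutant. It was the gene called against Cilk1-/-, by −0.63 (standard error 0.12, adjusted p = 0.0281, limma), and its difference from wild type was −0.51 (adjusted p = 0.0359). The call against Cilk1-/- was lost without Cilk1-/- replicate 2, 3 or 4 (adjusted p of 0.0537, 0.0834 and 0.0785) or compound mutant replicate 2 (a difference of −0.51), and the adjusted p with the block was 0.181. Loxl1, which crosslinks elastin, was lower by 0.41 than in wild type (adjusted p = 0.0356), and Emilin3, a secreted glycoprotein, by 0.38 (adjusted p = 0.0177). Leaving out 1 library took the adjusted p against wild type to as much as 0.0936 for Mfap5, 0.102 for Loxl1 and 0.0533 for Emilin3.

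Among the partners that did not pass, Adamtsl3, an ADAMTS-like protein, had the highest difference from wild type in both mutants, 0.64 for Cilk1-/- (adjusted p = 0.129, limma, and 0.0284 and 0.0331 without compound mutant replicate 1 or 2) and 0.66 for the compound mutant (adjusted p = 0.107). It was at 2.23, 0.99 and 1.58 in the compound mutant, and the difference was 0.34 without replicate 1 and 0.96 without replicate 2 (adjusted p = 0.00731). Emilin2 had the lowest in Cilk1-/- at −0.45 (adjusted p = 0.118, and 0.0274 without compound mutant replicate 1). Efemp1 (fibulin-3) had the lowest in the compound mutant, at −0.72 from wild type (adjusted p = 0.0884) and −0.74 from Cilk1-/- (adjusted p = 0.103). It was at 3.59, 3.71 and 2.56 in the compound mutant and between 3.77 and 4.22 in the other libraries. All 3 were below every other library, with replicate 3 far below. Without replicate 3 the differences were −0.36 and −0.37, and without replicate 2 they were −0.94 and −0.95 (adjusted p of 0.026 and 0.0412). Loxl4, another crosslinking enzyme, had the highest difference against Cilk1-/- at 0.57 (adjusted p = 0.212). It was at 1.40, 2.03 and 0.80 in the compound mutant, and the difference was 0.26 without replicate 2 and 0.87 without replicate 3 (adjusted p = 0.0333).

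Among the genes of latent TGF-beta activation (17 genes), Thbs1 rose in Cilk1-/-. It encodes thrombospondin-1, which can release TGF-beta from its propeptide. It was at 4.92, 4.71, 4.70 and 4.78 in wild type and at 5.25, 5.44, 5.44 and 5.40 in Cilk1-/-. The groups did not overlap. The difference was 0.61 (standard error 0.080, adjusted p = 0.0096, limma), or 1.52 times wild type, and with the block the adjusted p was 0.0846. Without wild-type replicate 2 or 3 the difference was 0.58, under the limit of fold change. Compound mutant libraries had Thbs1 at 5.25, 5.02 and 5.38, all above wild type, by 0.44 (adjusted p = 0.0194, block 0.122). That p was 0.0592, 0.051 and 0.0618 without wild-type replicate 2, 3 or 4.

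The other 16 genes did not pass in any comparison. Lrrc32, which holds latent TGF-beta on the cell surface, had the lowest difference in Cilk1-/- at −0.22 (adjusted p = 0.181, limma). The integrin subunits Itgb6 and Itgb8, whose dimers with the integrin subunit of Itgav activate latent TGF-beta, had the extremes of the compound mutant. Itgb6 was 0.61 above wild type (adjusted p = 0.0999) and 0.53 above Cilk1-/- (adjusted p = 0.161), with values of 1.60, 0.42 and 0.76 in the compound mutant and at most 0.44 elsewhere. Without replicate 1 these differences were 0.27 and 0.20, and without replicate 2 they were 0.86 and 0.79 (adjusted p of 0.0107 and 0.0276). Itgb8 was −0.34 from wild type (adjusted p = 0.0777) and −0.42 from Cilk1-/- (adjusted p = 0.0597). Without replicate 3 these were −0.46 and −0.53 (adjusted p of 0.0252 and 0.0123), and the first was −0.21 without replicate 2. Over the list, the median difference from wild type was 0.052 for Cilk1-/- and 0.016 for the compound mutant.

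Of the co-receptors and intracellular signaling genes (21 genes), 0 passed in Cilk1-/-. Its extremes were the co-receptor Tgfbr3 at 0.15 and Tgif2, a repressor of Smad targets, at −0.18. For the compound mutant, Eng (endoglin, a co-receptor of endothelial cells) passed at an adjusted p alone against both other genotypes. It was at 4.60, 4.52 and 4.47, above all wild-type (4.15 to 4.30) and Cilk1-/- (4.10 to 4.25) libraries. The difference was 0.31 from wild type (adjusted p = 0.0155, limma, block 0.127) and 0.34 from Cilk1-/- (adjusted p = 0.0145, block 0.178), and without Cilk1-/- replicate 4 the latter had an adjusted p of 0.0543. Endothelial markers (7 of 7 listed) summed to 97.8 to 119 in wild type, 92.0 to 109 in Cilk1-/- and 101 to 111 in the compound mutant. The part of endothelial cells in the values of Eng was not tested. Cd109, a co-receptor that inhibits signaling, was lower by 0.50 than in wild type (adjusted p = 0.0318), and Tgfbr3 was lower by 0.40 than in Cilk1-/- (adjusted p = 0.0355). Both lost this without 1 of several libraries, at adjusted p of up to 0.0923 and 0.103. Bambi, a decoy receptor, had the highest difference in the compound mutant at 0.53 from wild type (adjusted p = 0.232). It was at 3.08, 2.90 and 4.19 there, and replicate 3 was above all other libraries. Without it the difference was 0.13. Over the list, the median difference from wild type was −0.030 for Cilk1-/- and −0.097 for the compound mutant.

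Among the TGF-beta response genes (15 genes), Snai1, a zinc finger repressor of epithelial genes, fell in Cilk1-/-. It was at 4.54, 4.66, 4.68 and 4.73 in wild type, 4.16, 4.03, 4.07 and 3.96 in Cilk1-/- and 4.69, 4.48 and 4.53 in the compound mutant. Cilk1-/- libraries were below all others, and the compound mutant overlapped wild type. The difference of Cilk1-/- from wild type was −0.60 (standard error 0.061, adjusted p = 0.00306, limma), or 0.661 times. The adjusted p with the replicate block was 0.0529, and the difference was −0.57 without wild-type replicate 4 or Cilk1-/- replicate 4, short of a fold change of 1.5. Against Cilk1-/-, the compound mutant was higher by 0.51 (adjusted p = 0.00915, block 0.12), and against wild type the difference was −0.089 (95% confidence interval −0.23 to 0.058).

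The remaining response genes gave mixed values. Ldlrad4, a feedback inhibitor of Smad activation, passed at an adjusted p alone in the compound mutant, lower by 0.42 than in wild type (adjusted p = 0.0302, limma) and by 0.54 than in Cilk1-/- (adjusted p = 0.021). With the block these were 0.163 and 0.191, and without 1 of several libraries up to 0.0923 and 0.0717. Postn, a matrix protein of periodontal tissue, had the highest difference in Cilk1-/- at 0.51 (adjusted p = 0.168), and Ctgf (Ccn2) the highest in the compound mutant at 0.38 from wild type (adjusted p = 0.29). The latter was 0.15 without compound mutant replicate 1 and 0.71 without replicate 2 (adjusted p = 0.0051). Over the list, the median difference from wild type was −0.0063 for Cilk1-/- and −0.028 for the compound mutant.

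The genes most like Fbn1 in pattern were found by the root mean square difference between deviations from the mean over the 11 libraries, with no test. They were Phldb2 (0.093), Cdh17 (0.0951), Kcnd3 (0.0984), Akr1c13 (0.1001) and Cpxm1 (0.108), where the median over all other genes was 0.318. Phldb2, which anchors microtubules at the cell cortex, was at 4.51 to 4.72 in wild type, 4.12 to 4.32 in Cilk1-/- and 3.83, 4.13 and 3.81 in the compound mutant. Cpxm1, a secreted carboxypeptidase-like protein, went from a mean of 5.86 to 5.58 and 5.34. Cdh17, Kcnd3 and Akr1c13 had low levels, with wild-type means of 1.07, 1.25 and 0.85. Of the other 9 fibrillin, LTBP and TGF-beta genes, Tgfb3 was nearest to Fbn1 at 0.216, in place 433, and Tgfb2 farthest at 0.484, in place 15491.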

How the data were processed

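Poly-A RNA of the germs was sequenced with paired ends. The authors mapped reads to mm10 and counted them per gene, and the submitters' processing notes name HISAT2 2.0.5 and featureCounts 1.5.0-p3. The deposited values are on a log2 scale, of FPKM calculated by the authors as far as the methods tell. Turned back to the linear scale (2 to the power of the value, minus 1), they sum to 339970 to 364615 per library, and 257 genes have a value below 0, from a step not given in the sources used here. Counts were not used here, so no count model was fitted.

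Genotypes were compared with limma 3.58.1 in R 4.3.3 (lmFit, eBayes with trend and robust), in one fit over 11 libraries and 16755 genes without covariates, with the Benjamini-Hochberg adjustment. Since 1 was added before the logarithm, differences understate the change of low genes. The fit was tested on simulated data. Plots were drawn with Python 3.11.15 and matplotlib 3.10.9. Positions are from GENCODE vM21 (GRCm38).

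The genes, the pathway and marker lists and the tests were chosen with earlier results of these data known. Named are the 10 genes, every called gene of the 4 pathway lists, the highest and lowest difference per list and comparison, and the 5 genes most like Fbn1. Genes that passed at an adjusted p alone were also named, and these were picked after their values were seen.

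The labels give wild-type and Cilk1-/- libraries the same replicate numbers. Deviations from the genotype mean of same-numbered libraries correlated at −0.741, −0.892, −0.848 and −0.792 over genes for numbers 1 to 4, whereas other pairs of wild-type and Cilk1-/- libraries gave −0.0125 to 0.392. The fit over all libraries still took same-numbered libraries as independent, and the block was run only as an alternative. Without the block, standard errors and p-values of Cilk1-/- against wild type are then too small. Whether a step before deposit removed a replicate term is not given in the sources used here and was not tested. The value with the number as a block is given where it changes a call. The compound mutant enters the block by number alone. Alternatives were a fit of 2 genotypes, the library series of the labels as a term, the block, other variance models, a filter at a mean of 1, a pseudocount of 0.1, quantile normalization, median centring, other thresholds and leaving out each library. A promoter sequence of Fbn1 is not reported here.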

Additional observations from a re-analysis of the deposited data

How the results depend on the processing

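In Cilk1-/- against wild type, 0 of the 10 genes were called under every alternative run, except that 1 (Fbn1) passed at an adjusted p with no limit on fold change. In both comparisons of the compound mutant, Fbn1 was left out and 0 of the other 9 genes were called under every alternative run. Over the 28 tested differences of the genes under 20 alternatives, which give 560 values, 499 kept direction and side of the adjusted p of 0.05, 15 passed it, 7 lost it and 39 changed sign. The largest differences to change sign were those of Fbn2 in the compound mutant, 0.113 from wild type and 0.115 from Cilk1-/- in the fit over all libraries. The cause of the sign changes was not tested. With quantile normalization, Cilk1-/- minus wild type was 0.051 for Fbn2, 0.036 for Tgfb3 and 0.030 for Tgfbr1, and compound mutant minus Cilk1-/- was −0.021 for Ltbp4 and −0.0099 for Tgfb2. The latter comparison gave Ltbp4 −7.4e-05 and Tgfb2 −0.0015 with median centring, Ltbp4 −0.015 with the library series as a term, and Tgfb2 −0.00062 with a pseudocount of 0.1. Leaving out a library gave Fbn2 −0.045 to 0.037, Tgfb3 −0.042 to 0.014 and Tgfbr1 −0.032 to 0.029 in Cilk1-/- against wild type. In the compound mutant it gave Fbn2 −0.011 to 0.34, Ltbp4 −0.045 to 0.12 and Tgfbr1 −0.12 to 0.13 against wild type, and Fbn2 −0.0088 to 0.34, Ltbp4 −0.098 to 0.065, Tgfb2 −0.18 to 0.15, Tgfbr1 −0.12 to 0.13 and Tgfbr2 −0.053 to 0.038 against Cilk1-/-.

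With the replicate block, which pairs libraries by number, 4, 26 and 2 genes were called in Cilk1-/- against wild type and in the compound mutant against wild type and Cilk1-/-, where the fit without it called 62, 209 and 91. With the compound mutant placed with replicate 4, 4, 0 and 0 were called in limma, while 110, 261 and 159 passed at an unadjusted p and the same fold change. The difference of compound mutant and Cilk1-/- was −0.0037 for Tgfb2 and 0.0019 for Tgfbr2 with the block, and −0.015 for Ltbp4 with the compound mutant placed with replicate 4. Fbn1 in Cilk1-/- was the one tested member that lost its adjusted p under 0.05 with the block.

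In the same order of comparisons, 130, 34 and 1 genes were called with the 2 genotypes alone, 37, 18 and 1 with the library series as a term, 123, 547 and 294 with a pseudocount of 0.1, 126, 499 and 350 at an unadjusted p, and 409, 1102 and 558 with no limit on fold change. Leaving out a library gave 15 to 95, 80 to 671 and 36 to 360. Depth is unknown, so no limit of detection can be given.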
